A study of Mus musculus with 12 samples.

Results

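Interferon-inducible GTPases were followed as 7 genes: the guanylate-binding proteins Gbp2, Gbp3 and Gbp7 and the immunity-related GTPases Igtp, Irgm1, Irgm2 and Iigp1. They were taken by symbol from a table of 20718 genes, and all 7 were among the 16320 genes that passed the filter on low counts. The 7 were chosen by symbol with their levels in these 12 libraries, and their differences between the groups, already in view. Levels and differences of the 7 are therefore given as description, without tests. RNA sequencing of total RNA from whole testis gave 12 libraries of mice whose strain is given as IRC mouse, 3 libraries in each of 4 groups, all labelled F0. In the group 8276OV the testes had been transfected with a virus that overexpressed lncRNA8276, and in 8276KD with a virus that inhibited it. The names 5NC and 3NC carry no explanation in the labels. Both were taken as control groups, 5NC for 8276OV and 3NC for 8276KD, because the design statement lists them in that order. Neither age nor the cells that took up virus are given, lncRNA8276 itself was not analysed here, and whether the libraries of a group come from separate animals is not stated, so p-values measure the spread between libraries, which may be technical.

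Both GTPase families are made mainly when interferon reaches a cell. Interferon gamma binds a receptor of the chains Ifngr1 and Ifngr2, the kinases Jak1 and Jak2 on its inner side pass the signal on, and transcription factors, Irf1 among them, switch the genes on. Guanylate-binding proteins such as Gbp2 assemble on vacuoles that hold intracellular pathogens, and Gbp7 has been tied to assembly of the phagocyte oxidase. Among the immunity-related GTPases, Iigp1 (Irga6) is an effector that loads onto the vacuole of Toxoplasma, whereas Irgm1, Irgm2 and Igtp (Irgm3) are regulators that sit on the cell's own membranes and hold the effectors inactive. In testis, germ cells make a constitutive relative, Irgc1, needed for sperm motility.

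The genes lie in clusters. In GRCm38.p6, the assembly also called mm10, Gbp7 (gene 229900, chr3:142530336-142550151), Gbp3 (55932, chr3:142560016-142573213) and Gbp2 (14469, chr3:142620663-142638008) share a stretch of chromosome 3. Between Gbp7 and Gbp3 lie 9864 bases and 0 annotated genes, and between Gbp3 and Gbp2 lies 1 gene, Gbp2b. Igtp (16145, chr11:58199556-58207592) and Irgm2 (54396, chr11:58214977-58222783) are neighbours, 7384 bases apart with 0 genes between them. Irgm1 (15944, chr11:48865245-48871420) lies on the same chromosome. All are annotated as protein-coding.

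The sequence just before the transcript start is shown for the 6 members with a RefSeq promoter entry, since the elements through which interferon acts on this family are known to lie there. Each runs 5' to 3' in the direction of transcription and ends at the base before the start: Gbp2 at chr3:142620538-142620662 on the plus strand, Gbp3 at chr3:142559919-142560043 on the plus strand, Gbp7 at chr3:142530211-142530335 on the plus strand, Igtp at chr11:58199431-58199555 on the plus strand, Irgm1 at chr11:48871421-48871545 on the minus strand and Irgm2 at chr11:58214852-58214976 on the plus strand, read from RefSeq's GRCm38.p6 annotation. Capitals mark letters that match either of 2 motifs, or its reverse complement: GAAANNGAAA, the core of an interferon-stimulated response element (ISRE), and TTCNNNGAA, the core of a gamma-activated site (GAS). Iigp1 had no entry.
Gbp2: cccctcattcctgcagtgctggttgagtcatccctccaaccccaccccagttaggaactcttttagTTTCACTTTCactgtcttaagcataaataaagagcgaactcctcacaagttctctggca
Gbp3: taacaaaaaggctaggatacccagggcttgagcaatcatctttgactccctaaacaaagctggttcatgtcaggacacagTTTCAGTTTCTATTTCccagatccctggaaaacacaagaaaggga
Gbp7: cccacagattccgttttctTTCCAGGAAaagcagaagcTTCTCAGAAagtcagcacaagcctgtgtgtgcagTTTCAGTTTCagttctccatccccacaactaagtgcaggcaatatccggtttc
Igtp: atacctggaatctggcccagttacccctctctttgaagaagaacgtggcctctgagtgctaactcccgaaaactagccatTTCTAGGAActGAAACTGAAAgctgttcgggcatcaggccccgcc
Irgm1: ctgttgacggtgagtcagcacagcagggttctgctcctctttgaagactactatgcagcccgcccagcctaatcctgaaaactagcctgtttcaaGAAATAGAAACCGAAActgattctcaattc
Irgm2: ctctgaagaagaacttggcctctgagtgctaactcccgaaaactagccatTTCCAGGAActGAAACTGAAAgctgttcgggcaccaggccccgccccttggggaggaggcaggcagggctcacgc

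An ISRE-type match stood in the 300-base window around the start (250 bases before it and 50 after) of 6 of 6 members, against 3.99% of the 27025 genes in the table. Gbp3 has a second entry, and it holds 0 matches of either motif. Counted from the start, the match began at base −59 in Gbp2, −53 in Gbp7, −34 in Igtp and −64 in Irgm2, and 2 overlapping matches began at −45 and −39 in Gbp3 and at −30 and −24 in Irgm1. In the 3 Gbp genes the match was on the strand opposite to transcription, and in the 3 IRG genes on the transcribed orientation. A GAS-type match, which reads as the same pattern on both strands, stood in 3 of 6 members, against 9.55% of genes: Gbp7 had 2, at −106 and −87, and Igtp and Irgm2 had 1 each, at −45 and −75, just before their ISRE-type match and not overlapping it. Upstream sequence of Igtp and Irgm2 was nearly the same, with 89 of 92 aligned bases identical (96.7%) between −92 to −1 of Igtp and −122 to −31 of Irgm2. No other pair of the 6 shared an ungapped segment of more than 15 bases under the same scoring. Among the other inducible GTPases with an entry, 6 of 9 had an ISRE-type and 4 of 9 a GAS-type match, while of 11 genes for ATG8 conjugation and vacuole partners 0 had an ISRE-type and 3 a GAS-type match. Of 11 interferon ligand and receptor genes 1 had an ISRE-type and 4 a GAS-type match. A match describes letters in the window and does not show that a factor binds there.

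**Figure D1:**
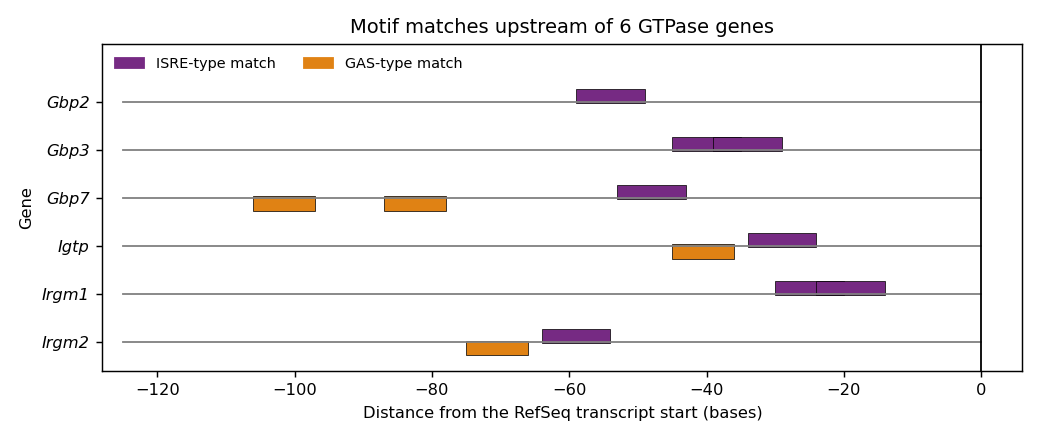
Motif matches upstream of 6 of the 7 GTPase genes. The horizontal axis is the distance in bases from the RefSeq transcript start (0), each grey line is one gene's upstream sequence, and purple and orange boxes mark ISRE-type and GAS-type matches. All ISRE-type matches begin between −64 and −24.

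The libraries held 15448442 to 16355720 estimated reads, and 18611 to 18788 genes had a read. On the first principal component (19.1% of variance) 3NC replicate 2 scored 29 and 8276OV replicates 1 and 3 scored 30.2 and 30.3, while the others lay between −16.1 and 10.3. Germ cell markers summed to 13900 to 18100 CPM in every library, Leydig cell markers to 1270 to 3080 and Sertoli cell markers to 676 to 1370, so markers of all 3 cell types were present. CPM are reads scaled to a common library total.

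The 7 GTPase genes were at their highest in 8276OV and were low and even in 8276KD, while within 5NC and within 3NC replicate 2 stood above the other 2 libraries. In whole tissue, fewer cells of a type and less RNA per cell cannot be told apart. Gbp2, of which the mouse protein coats Toxoplasma vacuoles, had 25.2, 44.9 and 7.62 CPM in replicates 1, 2 and 3 of 8276OV, against 4.76, 19.8 and 1.28 CPM in 5NC. It had 1.34, 1.36 and 1.66 CPM in 8276KD, against 1.09, 19.2 and 2.1 CPM in 3NC. Replicate 2 of 5NC lay above the lowest 8276OV library, and replicate 1 of 3NC below all of 8276KD, so in both comparisons the groups overlapped.

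Gbp3, another guanylate-binding protein of the same cluster, had 15.2, 22.5 and 7.68 CPM in 8276OV, against 4.03, 6.24 and 2.05 CPM in 5NC. Its levels were 1.66, 2.01 and 1.53 CPM in 8276KD, against 2.18, 10.6 and 2.56 CPM in 3NC. Gbp3 was the 1 member of 7 whose libraries did not overlap in either comparison, as was so for 7.64% of all genes in the first (higher in 8276OV) and 8.74% in the second (lower in 8276KD). Gbp7 had 27.1, 38.7 and 15.7 CPM in 8276OV, against 9.4, 17 and 4.29 CPM in 5NC. In 8276KD it had 2.42, 3.89 and 4.34 CPM, against 3.86, 20 and 4.53 CPM in 3NC. Replicate 2 of 5NC exceeded replicate 3 of 8276OV by little, and replicate 1 of 3NC lay within the range of 8276KD.

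Irgm1, whose loss in mice unleashes the effector GTPases and impairs defence against bacteria, had 27.4, 45.1 and 10.6 CPM in 8276OV, against 7.94, 26.1 and 2.75 CPM in 5NC. Its 8276KD libraries had 1.91, 2.85 and 2.23 CPM, against 2.31, 28.1 and 4.99 CPM in 3NC. The single high 3NC library reached the level of 8276OV replicate 1. Igtp, a regulator found on the endoplasmic reticulum and lipid droplets, had 27.4, 47.9 and 10.1 CPM in 8276OV, against 7.33, 29.3 and 1.86 CPM in 5NC. Its values were 1.4, 2.33 and 2.42 CPM in 8276KD, against 1.8, 20.3 and 2.49 CPM in 3NC. Irgm2, a regulator found on the Golgi, had 18.8, 35.2 and 10.9 CPM in 8276OV, against 6.23, 23.2 and 2.37 CPM in 5NC. For this gene 8276KD held 1.27, 2.2 and 2.49 CPM, against 1.86, 15.1 and 4.53 CPM in 3NC. Both regulators overlapped between 8276OV and 5NC through replicate 2 of 5NC, and between 8276KD and 3NC through replicate 1 of 3NC. Their single values are uncertain because reads were shared between them: the deposited counts of both were fractional in 6 libraries, and in all 6 their sum was whole.

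Iigp1, the effector (gene 60440, chromosome 18), covered the widest range. It had 82.2, 171 and 43.9 CPM in 8276OV, against 16.7, 75.6 and 3.46 CPM in 5NC. It had 3.06, 2.66 and 5.74 CPM in 8276KD, against 3.02, 102 and 9.52 CPM in 3NC. Replicate 2 of 5NC lay above replicate 3 of 8276OV, and replicate 1 of 3NC lay within the range of 8276KD, so the groups overlapped in both comparisons. The highest library held 64.6-fold the level of the lowest, against 14.7-fold for Gbp3, the member of narrowest range. Across the 12 libraries the SD of log2 CPM lay between 1.3 (Gbp3) and 2.26 (Iigp1), where the median gene tested had 0.19.

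**Figure D2:**
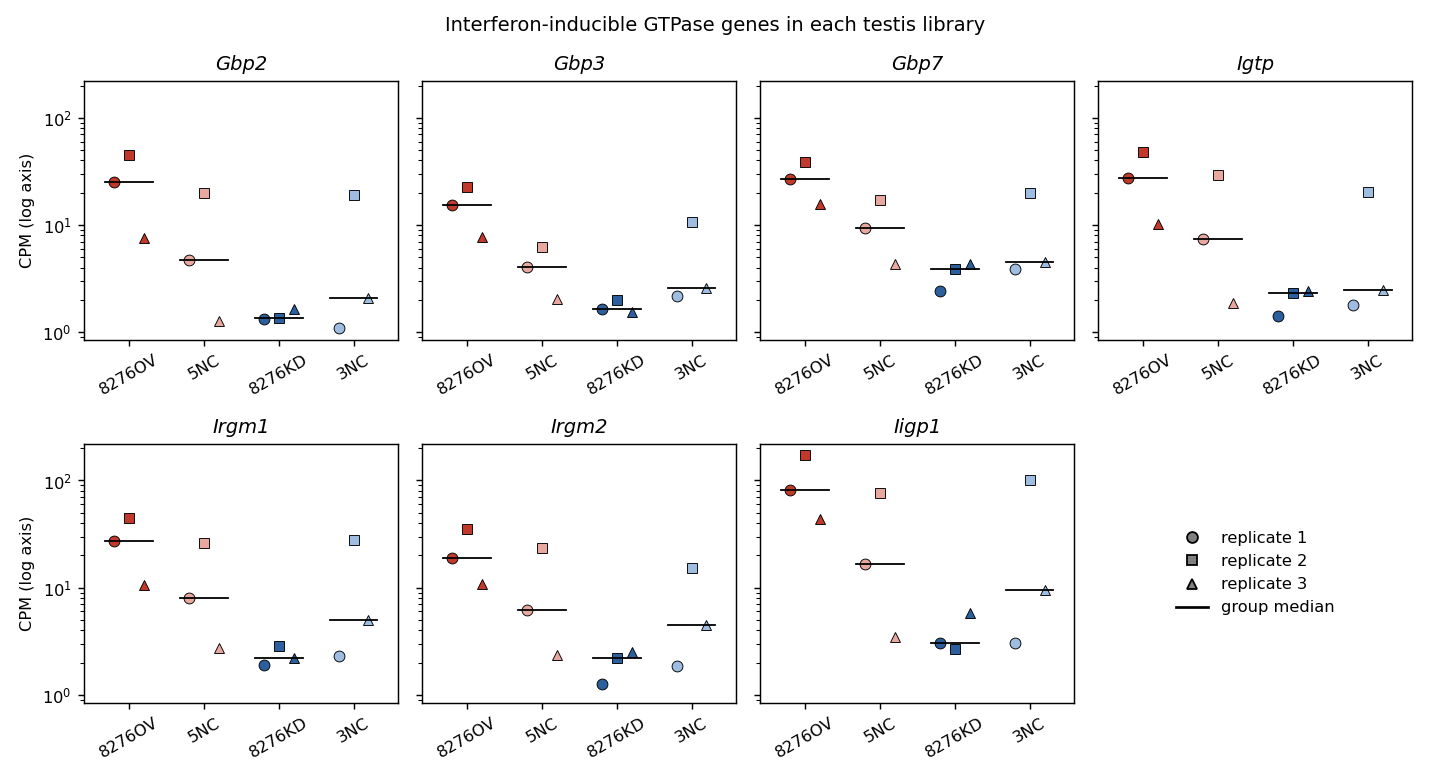
Level of each of the 7 genes in each testis library, in CPM on a log axis, by group. Points are single libraries (circle, square and triangle for replicates 1, 2 and 3) and lines are group medians; squares of 5NC and 3NC lie above the other libraries of their group, and 8276OV replicate 2 is the highest library for every gene.

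The 7 genes ordered the libraries almost alike. Averaged over the 7 as log2 CPM around each gene's mean, 8276OV replicate 2 stood highest at 2.71, followed by 8276OV replicate 1 at 1.94. Next came 3NC replicate 2 at 1.69 and 5NC replicate 2 at 1.64, ahead of 8276OV replicate 3 at 0.81. The remaining libraries were 5NC replicate 1 at 0.04, 3NC replicate 3 at −0.85 and a bottom set between −1.92 and −1.39 that held all 3 of 8276KD, 5NC replicate 3 and 3NC replicate 1. For every one of the 7 genes 8276OV replicate 2 was first, 5NC replicate 1 sixth and 3NC replicate 3 seventh of the 12. Pearson's r between members over the 12 libraries lay between 0.942 and 0.993 in the 21 pairs (median 0.978), and the lowest Spearman's rho was 0.846. These correlations share the same libraries, their depth and their makeup of cells, and are given as a description.

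Per transcript length, Iigp1 was also the most abundant member in 8276OV. FPKM, fragments scaled by transcript length and library total, averaged 35.1 ± 23.1 for Iigp1, 15 ± 9.96 for Igtp, 13.7 ± 8.46 for Irgm1, 11.1 ± 7.98 for Gbp2, 6.38 ± 3.65 for Irgm2, 6.02 ± 2.99 for Gbp3 and 4.96 ± 2.1 for Gbp7 in 8276OV (SD, n = 3). Each mean differed from its neighbour in this order by less than the larger of their SDs. In 8276KD the means lay between 1.35 ± 0.559 FPKM (Iigp1) and 0.577 ± 0.183 FPKM (Irgm2). There Igtp (1.08 ± 0.3) exceeded the next member down, Gbp3 (0.667 ± 0.0981), by more than either SD, and the other neighbours did not differ beyond their SDs. Summed over the 7 genes, FPKM was 85.1, 154 and 38.4 in 8276OV, against 22, 74.8 and 6.44 in 5NC. The sum was 4.78, 6.34 and 7.14 in 8276KD, against 5.71, 82.3 and 11.1 in 3NC. Iigp1 took 38.1% ± 3.15 of the sum in 8276OV, against 27.4% ± 8.05 in 5NC, and 22% ± 6.42 in 8276KD, against 31% ± 12.8 in 3NC (SD, n = 3). Its share ran from 15.1% in 8276KD replicate 2 to 44.4% in 3NC replicate 2, a library of low and one of high summed level. Gbp3 took 3.24% (5NC replicate 2) to 14.9% (3NC replicate 1).

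**Figure D3:**
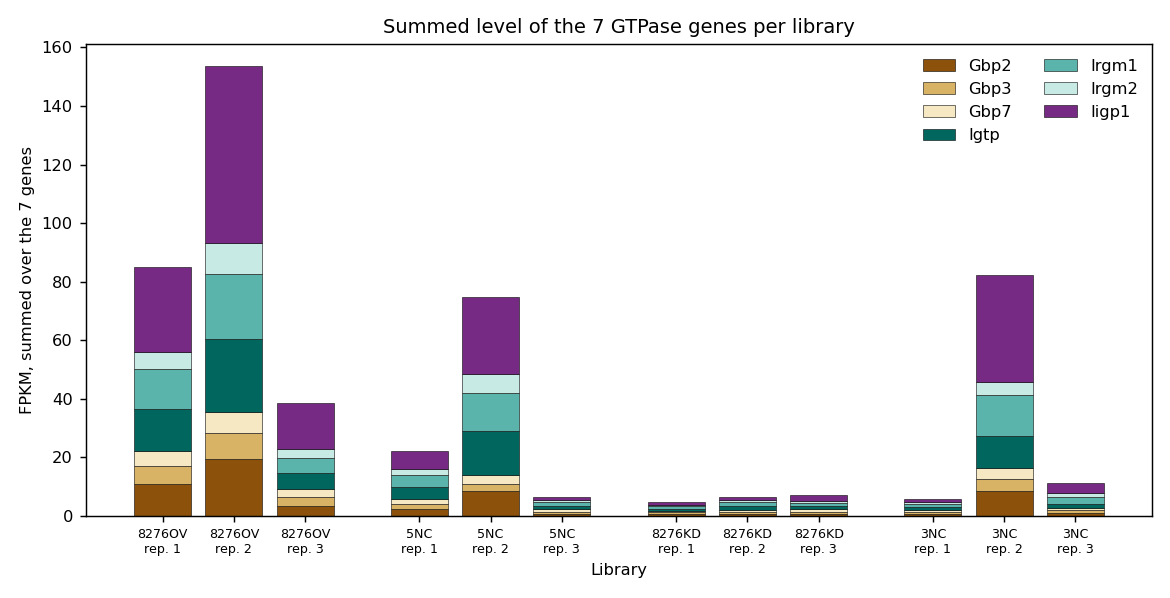
FPKM summed over the 7 genes in each library, with each gene's part in colour. The sum ran from 4.78 in 8276KD replicate 1 to 154 in 8276OV replicate 2; 5NC replicate 2 (74.8) and 3NC replicate 2 (82.3) lay above the other libraries of their groups.

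8276OV against 5NC asks what differed where the virus for overexpression of lncRNA8276 was given. All 7 genes had higher means in 8276OV, with log2 fold changes from 1.03 ± 0.89 (SE) for Irgm2 to 1.88 ± 0.64 for Gbp3. Between these lay Igtp at 1.15 ± 1.08, Irgm1 at 1.18 ± 1, Gbp7 at 1.41 ± 0.69, Gbp2 at 1.59 ± 1.15 and Iigp1 at 1.64 ± 1.3. The median was 1.41, where the median of all genes tested was 0, and 49.7% of all genes were higher. Libraries of 8276OV lay above all of 5NC for 1 of the 7 (Gbp3), a pattern that 7.64% of all genes showed. Single libraries moved the size: without 5NC replicate 2 the 7 log2 fold changes ran from 1.97 to 3.28, without 5NC replicate 3 from 0.56 to 1.56 and without 8276OV replicate 2 from 0.49 to 1.48. Subtracted library by library within the same replicate number, 8276OV was above 5NC for every gene and number. The labels do not pair libraries by number, and the 7 were chosen with these differences in view. The quasi-likelihood test of edgeR called 0 of 16320 genes in this comparison (0% at an adjusted p under 0.05), while 1697 had an unadjusted p under 0.05, DESeq2 called 46 (0.282%) and limma on FPKM called 0. With the replicate number as a block in a fit of 8276OV and 5NC alone, an alternative added after seeing the data, 215 of 15950 genes were called (1.35%).

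8276KD against 3NC asks what differed where the virus for inhibition of lncRNA8276 was given. All 7 genes had lower means in 8276KD, by log2 fold changes from −3.32 ± 1.57 for Iigp1 to −1.42 ± 0.78 for Gbp7. Gbp2 had −2.37 ± 1.43, Irgm1 −2.35 ± 1.19, Igtp −2.01 ± 1.33, Irgm2 −1.85 ± 1.08 and Gbp3 −1.57 ± 0.73. The median was −2.01, against 0 over all genes. These values rested on 3NC replicate 2: without it the 7 lay between −0.71 and −0.06. Subtracted within the same replicate number, 8276KD was above 3NC in replicate 1 for Gbp2 (0.26) and Iigp1 (0.02), and below it otherwise. In replicate 3 the log2 differences of Igtp (−0.04) and Gbp7 (−0.06) were small. The libraries of 8276KD lay below all of 3NC for 1 of the 7 (Gbp3), as for 8.74% of all genes, and edgeR called 29 of 16320 genes (0.178%).

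5NC against 3NC compares the groups taken as controls. Here 5 of the 7 genes had higher means in 5NC and 2 lower ones, with log2 fold changes from −0.33 (Gbp3) to 0.63 (Igtp) and a median of 0.1. The direction hung on single libraries: without 3NC replicate 2 all 7 were higher in 5NC (0.8 to 2.58), and without 5NC replicate 2 all 7 were lower (−1.91 to −0.46). The libraries were apart for 0 of the 7, a pattern that 8.13% of all genes showed upward and 8.72% downward. In this comparison edgeR called 59 genes (0.362%).

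8276OV against 8276KD sets the extremes side by side, without a common control. Every 8276OV library lay above every 8276KD library for 7 of 7 genes, a pattern of 9.74% of all genes. Log2 fold changes were 4.7 ± 1.59 for Iigp1, 4.15 ± 1.4 for Gbp2, 3.79 ± 1.3 for Igtp, 3.57 ± 1.18 for Irgm1, 3.44 ± 1.05 for Irgm2, 3.12 ± 0.7 for Gbp3 and 2.93 ± 0.77 for Gbp7. Under every alternative tried, leaving out single libraries included, they stayed between 2.6 and 5.11. In this comparison edgeR called 9 of 16320 genes (0.0551%) and DESeq2 144 (0.882%). Set against 3NC in place of 5NC, 8276OV had higher means for 7 of 7 (1.22 to 1.78), with 0 of 7 free of overlap, where 4.07% of all genes were. Set against 5NC in place of 3NC, 8276KD had lower means for 7 of 7 (−3.06 to −1.24), with 1 of 7 (Gbp3) free of overlap, where 6.34% of all genes were. These comparisons share their control libraries with those above.

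**Figure D4:**
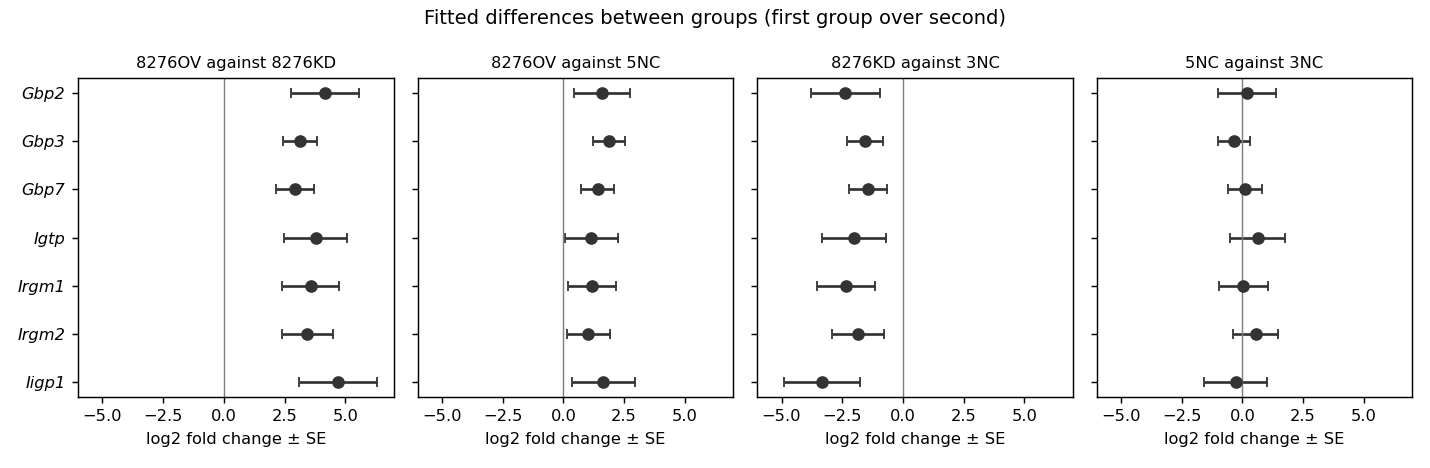
Fitted log2 fold changes of the 7 genes, first group over second, in 4 comparisons; bars are ± SE. All 7 lie above 0 for 8276OV against 8276KD and against 5NC, all 7 below 0 for 8276KD against 3NC, and they scatter around 0 for 5NC against 3NC.

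Of 21 other inducible GTPase genes listed, 18 were in the table and 17 were tested. Pearson's r with the mean of the 7 members over the 12 libraries was over 0.9 for 11 of the 17, and the lowest were Gm5431 (0.596), Gvin1 (0.624), 9930111J21Rik1 (0.702) and Gm4070 (0.705). In 8276OV against 5NC 17 of 17 had higher means (median log2 fold change 1.55, all genes 0), in 8276KD against 3NC 16 of 17 had lower means (median −1.24), and in 5NC against 3NC 11 had higher and 6 lower means (median 0.19). None passed edgeR's adjusted threshold in these comparisons, while 4, 1 and 0 had an unadjusted p under 0.05, and DESeq2 and limma on FPKM called 0 as well. Of all 16320 genes tested, 1697, 979 and 1972 had an unadjusted p under 0.05 in edgeR. In 8276OV against 8276KD 17 of 17 had higher means (median 3.37), with 0 called by edgeR, 17 at an unadjusted p under 0.05 and 9 called by DESeq2. Of all 16320 genes tested, 1279 had an unadjusted p under 0.05 there, and DESeq2 called 144 (0.882%). This list was chosen with earlier results of these data known, and most of its genes vary with the members, so these counts are not independent of the choice of the 7. Gbp2b, a guanylate-binding protein encoded between Gbp3 and Gbp2, had 16.2, 17.4 and 4.81 CPM in 8276OV, against 0.916, 3.55 and 0.0641 CPM in 5NC. It had 0.0637, 0.0648 and 0.319 CPM in 8276KD, against 0.0643, 5.05 and 0.459 CPM in 3NC, where the lowest values stand for about 1 read. Replicates 1 and 2 of 8276OV lay above every control library, and the log2 fold change was 3.09 ± 1.16 over 5NC (edgeR adjusted p = 0.444). Against 3NC, 8276KD had −3.59 ± 1.89 (adjusted p = 0.764). F830016B08Rik varied far less, with 24.6 ± 1.52 CPM in 8276OV, against 19.4 ± 2.68 in 5NC, and 17.2 ± 0.962 in 8276KD, against 20.7 ± 2.62 in 3NC (SD, n = 3). Its log2 fold changes were 0.35 ± 0.12 (adjusted p = 0.41) and −0.27 ± 0.12 (adjusted p = 0.764). Gm4070 had 1.11 ± 0.47 and 9930111J21Rik1 0.76 ± 0.34 in 8276OV over 5NC (adjusted p = 0.452 and 0.462). Counts of many of these paralogs were fractional, in all 12 libraries for Gbp6, Gbp10, Tgtp1, Tgtp2, F830016B08Rik, 9930111J21Rik1 and Gm4070, so their single values are uncertain.

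The constitutive relatives did not order the libraries in this way (r with the member mean −0.346 for Irgc1 and 0.0761 for Irgq). Irgc1, the germ cell member of the family, had 561 ± 98.1 FPKM in 8276OV, against 611 ± 52 in 5NC, and 650 ± 20.4 FPKM in 8276KD, against 565 ± 106 in 3NC (SD, n = 3). Its log2 fold change was −0.11 ± 0.15 in 8276OV over 5NC, with −0.41 to 0.19 as the range of 2 SE, and 0.21 ± 0.15 in 8276KD over 3NC (−0.09 to 0.51; edgeR adjusted p = 0.78 and 0.764). Irgc1 stood above the sum of all 7 inducible genes in every library, including 8276OV replicate 2. Irgq had −0.19 ± 0.2 and 0.27 ± 0.2 (adjusted p = 0.718 and 0.765).

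Ligands were near the limit of detection. Ifng, which encodes interferon gamma, had 1 read in all 3 libraries of 8276OV together, against 0 in 5NC, and 1 in 8276KD, against 1 in 3NC. Ifna2 had 2 reads in 8276OV, against 1 in 5NC, and Ifnk had 2, against 0. Ifnl3, the ligand with most reads, had 3 in 8276OV, against 12 in 5NC, and 13 in 8276KD, against 4 in 3NC. All ligands were under the filter on low counts and were not tested, and for Ifng no difference was detectable at this depth. Of the 6 receptor genes tested, edgeR, DESeq2 and limma called 0 in both comparisons and 0 had an unadjusted p under 0.05, with a median log2 fold change of 0.02 in 8276OV over 5NC and 0.06 in 8276KD over 3NC. Ifnar1, a chain of the type I receptor, had 0.16 ± 0.09 in 8276OV over 5NC, Ifngr2 −0.06 ± 0.1, Ifnlr1 0.46 ± 0.33 and Il10rb −0.12 ± 0.19 (edgeR adjusted p between 0.54 and 0.826). In 8276KD over 3NC Ifnlr1 had 0.53 ± 0.36 and Il10rb −0.26 ± 0.2 (adjusted p = 0.764 and 0.773).

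Among signal carriers and transcription factors, r with the member mean ran from −0.444 (Tyk2) to 0.979 (Irf1). Stat2 (0.957) and Ciita (0.948) also varied with the GTPases, while the kinases Jak1 (0.305) and Jak2 (0.564) did so less. Of the 14 tested, edgeR called none in 8276OV against 5NC (6 had an unadjusted p under 0.05, and DESeq2 called 1) or in 8276KD against 3NC (3 and 0). Irf1, a factor that is itself induced by interferon, had 24.7, 35.7 and 9.8 CPM in 8276OV, against 9.04, 21.6 and 4.16 CPM in 5NC. Its values were 3.89, 2.91 and 4.65 CPM in 8276KD, against 3.47, 15.3 and 6.63 CPM in 3NC. As for the GTPases, replicate 2 was high in 5NC and in 3NC. Log2 fold changes of Irf1 were 1.02 ± 0.7 in 8276OV over 5NC and −1.15 ± 0.79 in 8276KD over 3NC (edgeR adjusted p = 0.599 and 0.764).

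The smallest p of the 61 pathway genes tested in 8276OV against 5NC was that of Nlrc5, the activator of MHC class I genes. It had 13.9, 12.1 and 10.4 CPM in 8276OV, against 5.56, 6.24 and 5.77 CPM in 5NC, without overlap. The log2 fold change was 1.05 ± 0.22, not called by edgeR (adjusted p = 0.258) and called by DESeq2 (adjusted p = 0.00955). Set against 3NC in place of 5NC, 8276OV had only 0.27 ± 0.21, with overlap. All 5NC libraries lay below all of 3NC for this gene (−0.78 ± 0.22, edgeR adjusted p = 0.232). Unlike the GTPases, Nlrc5 was not raised in 3NC replicate 2. It had 6.5, 9.85 and 5.67 CPM in 8276KD, against 12.8, 9.98 and 7.48 CPM in 3NC, and its r with the member mean was 0.424. Ciita, the activator of MHC class II genes, had 2.3 ± 0.83 over 5NC (adjusted p = 0.434), Stat2, which acts under type I interferon, 0.76 ± 0.26 (adjusted p = 0.407) and Batf2 1.63 ± 0.58 (adjusted p = 0.419). In 8276KD against 3NC the smallest p of this list were those of Irf9, the DNA-binding partner of Stat2, with −0.87 ± 0.27 (adjusted p = 0.577), and of Stat3, with −0.39 ± 0.14 (adjusted p = 0.667). In the added fit of 8276OV and 5NC with a replicate block, 12 of the pathway genes were called higher in 8276OV. Among them were Irf1, Stat2, Nlrc5, Ciita, Tgtp1 and Ifi47. Of all 15950 genes in that fit 215 were called (1.35%), and the labels do not pair libraries by number. The fit without the block called 0 pathway genes, and the fit of all 4 groups with the block also called 0.

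Of the inhibitors 1 was called. Socs3, which blocks the kinases downstream of cytokine receptors of the IL-6 family, had 1.85, 1.42 and 2.1 CPM in 8276KD, against 7.52, 14.4 and 10.8 CPM in 3NC. It fell by 2.6 ± 0.38 on the log2 scale (edgeR adjusted p = 0.0136). In 5NC it had 2.08, 1.45 and 1.28 CPM and was also lower than in 3NC (−2.76 ± 0.39, adjusted p = 0.00585), and 8276OV, with 3.78, 1.63 and 0.999 CPM, was lower than 3NC too (−2.35 ± 0.37, adjusted p = 0.0149). Socs3 was high in 3NC alone of the 4 groups, in all 3 of its libraries, and did not order libraries as the GTPases did (r = 0.0368 with their mean). The call in 8276KD was lost without 3NC replicate 2 or without any 1 of the 8276KD libraries, and that in 5NC without 5NC replicate 3. Other inhibitors were not called in 8276OV against 5NC: Isg15, the ubiquitin-like interferon product, had 1.28 ± 0.6 (adjusted p = 0.481), Usp18, which removes it, 0.83 ± 0.44 (0.507), the phosphatase genes Ptpn6 0.71 ± 0.28 (0.444) and Ptpn2 0.16 ± 0.1 (0.552). In 8276KD against 3NC Isg15 had −1.42 ± 0.75 (adjusted p = 0.764).

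The list of ATG8 conjugation genes, whose products help to target these GTPases to membranes, and of vacuole partners had medians near that of all genes. Of 14 tested edgeR, DESeq2 and limma called 0 in both comparisons (1 and 2 had an unadjusted p under 0.05), and the medians were −0.07 in 8276OV over 5NC and −0.04 in 8276KD over 3NC. Casp4 (caspase-11), the sensor of lipopolysaccharide that guanylate-binding proteins assist, had 0.897, 1 and 0.936 CPM in 8276OV, against 0.55, 0.394 and 0.128 CPM in 5NC, at the edge of what this depth can count (1.38 ± 0.6, adjusted p = 0.452). Across the 12 libraries Casp4 varied with the GTPases, with r of 0.871 to the member mean. Sqstm1 had −0.2 ± 0.11, Map1lc3b −0.16 ± 0.1 and Map1lc3a −0.24 ± 0.15 in 8276OV over 5NC (adjusted p between 0.517 and 0.546). In 8276KD over 3NC Map1lc3a had 0.42 ± 0.15 and Sqstm1 −0.24 ± 0.11 (adjusted p = 0.671 and 0.764).

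**Figure D5:**
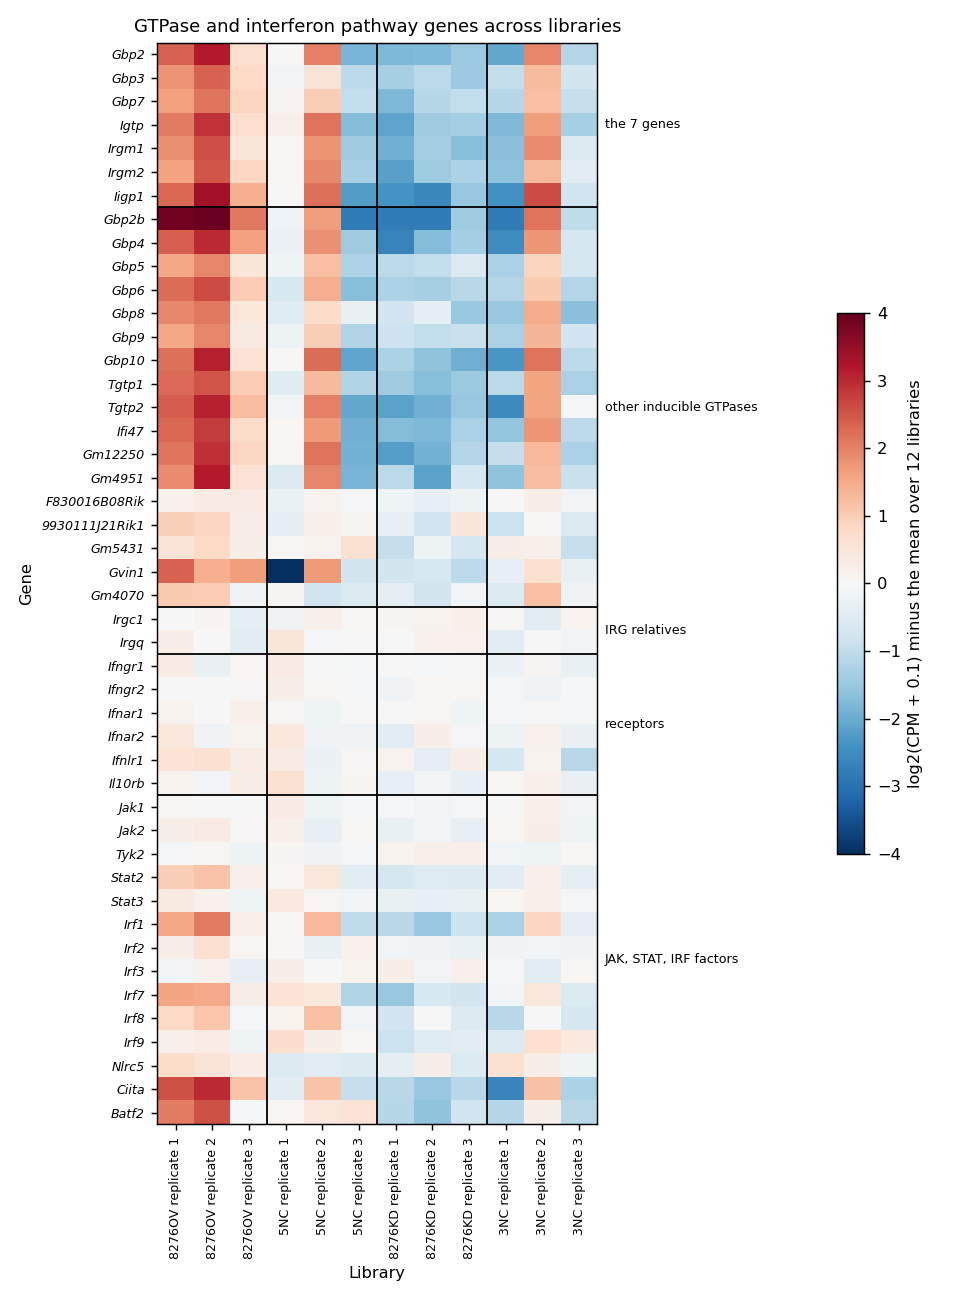
Log2(CPM + 0.1) of the 7 genes and of other GTPases, relatives, receptors and factors, minus each gene's mean over 12 libraries, with genes in rows and libraries in columns. Colours run from −4 (blue) to 4 (red) and values beyond are shown at the ends; replicate 2 of 5NC and of 3NC is red with 8276OV for most inducible GTPases and Irf1, and near 0 for Irgc1 and the receptors.

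Of 15205 genes with a mean of at least 1 CPM, the 8 whose log2 CPM was most alike to the mean of the 7 members over 12 libraries were Ifi47 (r = 0.994), Gbp5 and Gbp4 (0.984), Gbp9 and Gbp10 (0.982), Tgtp2 (0.981), and Gm12250 and Irf1 (0.979). Without the 2 libraries of highest member mean, 8276OV replicates 1 and 2, these r stayed between 0.963 and 0.991. All but Irf1 are themselves inducible GTPases. Among the receptors, Ifngr1 had 0.238 and Ifngr2 0.0885.

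Macrophage markers stood beside these levels as follows. All 12 of 12 had reads in every group, and 12 of 12 had higher means in 8276OV than in 5NC (median log2 fold change 0.65), 4 of them at an unadjusted p under 0.05 in edgeR, and none passed after adjustment. They summed to 261, 158 and 142 CPM in 8276OV, against 172, 122 and 117 CPM in 5NC. The sum was 105, 123 and 119 CPM in 8276KD, against 102, 143 and 111 CPM in 3NC, with 5 of 12 higher and 7 lower in 8276KD (median −0.04). The highest marker sum was in 8276OV replicate 1 and the highest GTPase level in 8276OV replicate 2. In 5NC replicate 2 held more GTPase RNA than replicate 1 with a lower marker sum (122 against 172 CPM). Over the 12 libraries r between the marker sum and the member mean was 0.687 and rho 0.797, as a description. Among the 12 single markers r ran from 0.0146 (Cd163) to 0.818 (C1qc), and rho from −0.112 (Cd163) to 0.909 (C1qa). Lymphocyte and NK cell markers summed to 19.8, 12.2 and 11.7 CPM in 8276OV, against 11.4, 12.2 and 10.6 CPM in 5NC, and to 9.85 to 11.2 CPM in 8276KD, against 8.52 to 13.1 CPM in 3NC, where replicate 2 had the lowest sum. Cd3d made up the largest part of these reads, and Ncr1 had 0 reads in 8276KD and in 3NC. The cytotoxic lymphocyte genes had few reads that stood out in replicates 1 and 3 of 8276OV: Gzmb, which encodes granzyme B, had 42, 2 and 12 reads in 8276OV, against 2, 2 and 0 in 5NC, and 0, 3 and 1 in 8276KD, against 0, 6 and 0 in 3NC. Nkg7, of cytotoxic granules, had 24, 1 and 11 reads in 8276OV, against 4, 1 and 3 in 5NC, and Cd8a, the T cell co-receptor, had 33, 5 and 19, against 8, 13 and 5. Replicate 2 of 8276OV was low for all 3. Of these 3 only Cd8a passed the filter on low counts, and its r with the member mean was 0.605. Summed peritubular cell markers were lower in 8276OV (59.4 to 72.6 CPM) than in 5NC (83.1 to 102 CPM). Summed Sertoli cell markers were lower too (740 to 887, against 905 to 1370 CPM). Sums of Leydig cell markers (1270 to 2040, against 1770 to 3080 CPM), germ cell markers and endothelium markers overlapped. In this comparison edgeR called 0 of all 16320 genes. Markers of epididymis and fat were at 140 and 137 CPM in 5NC replicates 2 and 3, the highest and the lowest 5NC library for the GTPases. The part of any of these cell types in the GTPase levels was not tested.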

How the data were processed

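Total RNA of 12 testis libraries was sequenced. The authors deposited expected counts, reads estimated per gene with no scaling per the file headers, which were rounded here for count tests. The authors also deposited normalised values, whose unit, FPKM, was inferred here: over 5771 well-covered genes, value per read times the library total varied by 0.535% (median CV over libraries). Reads were mapped to mm10 per the submitters' processing notes. Aligner, counting program, annotation and strandedness: not given in the sources used here. A further 18 per-sample columns, of no library in this series, were left out.

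The test was edgeR's (version 4.0.16, R 4.3.3; quasi-likelihood, robust, TMM scaling, 1 fit of 4 groups, filterByExpr with a minimum count of 10 and total of 15). Calls were made where the p adjusted by Benjamini-Hochberg over all 16320 genes tested was under 0.05. SEs are approximate, the fold change divided by the root of F. The fit was tested on simulated data. Library totals of 15448442 to 16355720 reads set the counting error. Members and gene lists were chosen with earlier results of these data known. By the rule for named genes, each list gives its called genes, up to 4 of smallest p in 8276OV against 5NC and up to 2 in 8276KD against 3NC, plus the 8 genes of highest r with the member mean. A few others (Ifngr1, the kinases Jak1, Jak2 and Tyk2, the ligands and paralogs named for fractional counts) were named for their role. Of the pathway list and of that ranking 1 gene is not reported here. Of 76 pathway symbols 68, and of 70 cell type marker symbols 68, were in the table. Promoter windows and coordinates came from RefSeq tables for GRCm38.p6. Replicate numbers come from the sample titles. Deviations from group means correlated between same-numbered 8276OV and 5NC libraries with r of 0.16, 0.15 and 0.11. This met the rule used here for showing blocked counts (every r over 0.1), so they stand beside that comparison. The labels state no pairing, and r this small does not establish any. Alternatives were other scaling and filters, DESeq2 1.42.0, limma 3.58.1 on log2(FPKM + 0.1), fits of only the groups compared, a replicate block, the other control group and each library left out.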

Additional observations from a re-analysis of the deposited data

How the results depend on the processing

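The count of pathway genes called, of 61 tested, was 0 for 8276OV against 5NC, 1 for 8276KD against 3NC, 1 for 5NC against 3NC and 0 for 8276OV against 8276KD. Of all 16320 genes edgeR called 0, 29, 59 and 9 in that order (0%, 0.178%, 0.362% and 0.0551%). The pathway list was chosen with earlier results of these data known, so its counts are not independent of that choice. For 8276OV against 5NC DESeq2 called 1 (Nlrc5) and the comparison with 3NC instead called 1 (Socs3, lower). For 8276KD the comparison with 5NC instead called 0. For 8276OV against 8276KD DESeq2 called 16 (144 of all 16320 genes, 0.882%) and a fit of only these groups 4 (33 of all 15936, 0.207%). With single libraries left out the counts ran from 0 to 0, from 0 to 1, from 0 to 1 and from 0 to 4 in the order above. Without 3NC replicate 2, or any 1 replicate of 8276KD, 8276KD against 3NC gave 0; without 5NC replicate 3, 5NC against 3NC gave 0; without 8276OV replicate 3, 8276OV against 8276KD gave 4, without 3NC replicate 2 it gave 2 and without 5NC replicate 3 it gave 1. The causes were not tested.

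The replicate block in the fit of 4 groups called 0 for 8276OV against 5NC, 1 for 8276KD against 3NC, 1 for 5NC against 3NC and 3 for 8276OV against 8276KD. Of all 16320 genes that fit called 0, 22, 50 and 31 (0%, 0.135%, 0.306% and 0.19%). In fits of only the groups compared, added after seeing the data, the block called 12, 1, 2 and 9. For 8276OV against 5NC 215 of all 15950 genes were called there (1.35%). Outside 8276OV and 5NC r of same-numbered deviations was 0.01 to 0.06 for 8276KD and 3NC, −0.03 to 0.02 for 5NC and 3NC, and −0.05 to 0.04 for 8276OV and 8276KD. The labels state no pairing by number in any comparison.

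Of the members' log2 fold changes under all alternatives, 0 of 147 for 8276OV against 5NC, 7 of 147 for 8276KD against 3NC, 6 of 140 for 5NC against 3NC and 0 of 140 for 8276OV against 8276KD moved by more than 1 SD, all on leaving out 3NC replicate 2. Changes under that limit could still be large. Without 5NC replicate 2 the 7 values for 8276OV against 5NC ran from 1.97 to 3.28, against 1.03 to 1.88 with all libraries. In 5NC against 3NC all 7 were then lower (−1.91 to −0.46), and neither change was counted. The direction of all 7 held under every alternative except in 5NC against 3NC. Genes with few reads, such as the interferon ligands, could not be compared at this depth.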
